A study of Mus musculus x Rattus norvegicus with 2 samples.

Results

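The distal lung epithelium of 2 species was compared within 1 library of chimeric lung, which held rat cells and, beside them, mouse cells. Cells were taken from the control library alone by their UMIs, the unique molecular identifiers that mark single captured RNA molecules. Barcodes were kept from 500 genes upward and with no more than 20% mitochondrial UMIs. Those with 10% or less of their UMIs on mouse genes were taken as rat, and those with 90% or more as mouse. Epithelial cells then needed at least 2 UMIs of their own species' Epcam, the epithelial adhesion molecule, and fewer than 20 UMIs of Scgb3a2 and Scgb1a1 together, the secretoglobins of airway secretory cells. This left 146 rat and 901 mouse cells, 1047 of the 9021 kept barcodes. Because Epcam, the secretoglobins and the species share chose the cells, their levels are given as description only.

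The lungs were those of embryos chimeric for mouse and rat, taken at E20.5 (C57BL/6 mouse and SD rat strains), were dissociated into single cells and were sequenced with the 10x 3' v3 chemistry. The control host was a wild-type rat, so neither its rat cells nor the mouse cells beside them are labelled as carrying a mutation. The rat cells are those of the host, and the mouse cells are a donor contribution whose derivation is not given in the sources used here. The library of the mutant host (Nkx2-1-/- rat) was not used for expression.

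Alveoli are lined by flat type 1 (AT1) cells, across which gas diffuses, and by cuboidal type 2 (AT2) cells, which make surfactant and store it in lamellar bodies. Both arise before birth from progenitors at the tips of the branching airways that depend on the transcription factor Nkx2-1, and developing cells can carry RNA of both fates. Mouse gestation is shorter than that of the rat, and E20.5 lies before the usual term of the rat but at or past that of the mouse.

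There was 1 library, so the rat and the mouse values are 1 sum each, with no replicate, no test and no p-value. Intervals are 95%. Those of CPM cover the counting error of UMIs alone, and those of shares of cells treat the cells of 1 library as independent draws. Neither covers differences between animals. Species, gene annotation, number of animals, stage relative to birth and the make-up of the cells cannot be told apart. The rat cells gave 2494056 rat UMIs and the mouse cells 30305725 mouse UMIs. The median cell had 12205.5 UMIs in rat (2234 to 87935) and 14342 UMIs in mouse (684 to 275255), with 3767 genes in rat and 4154 genes in mouse. Mitochondrial genes took a median of 5.27% of UMIs in rat cells and 2.38% in mouse cells. UMIs of the other species made up 5.04% of all UMIs in the rat cells and 0.478% in the mouse cells. A doublet score of 0.2 or more was found in 1 of the 146 rat and 23 of the 901 mouse cells, which were kept. The library shared 47 barcodes with the mutant library, of which 5 were among the compared cells, 1 of them rat.

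Both species' cells held Nkx2-1, but the secretoglobin limit did not take the same cells from each. Nkx2-1 (ENSRNOG00000008644 in rat; ENSMUSG00000001496 in mouse, mm10 chromosome 12, 56531958 to 56536908) was at 553 CPM (counts per 1000000 own-species UMIs; 525 to 583) in rat cells and 507 CPM (499 to 515) in mouse cells. A UMI of it was found in 95.2% of rat cells and 90.01% of mouse cells, and mesenchymal cells had 0.773 CPM in rat and 6.71 CPM in mouse. Sftpc, which encodes the precursor of surfactant protein C (ENSRNOG00000011177 in rat; ENSMUSG00000022097 in mouse, mm10 chromosome 14, 70520949 to 70524081), was at 2713 CPM (2649 to 2778) in rat cells and 34856 CPM (34790 to 34923) in mouse cells. The rat cells excluded by the limit were richer in it. The 78 excluded rat cells had 8034 CPM of Sftpc, 209 CPM of Lamp3 and 4.40 CPM of the airway factor Sox2, and only 6 rat Epcam+ cells had 20 or more UMIs of Scgb3a2. The 83 excluded mouse cells had 1441 CPM of Sftpc, 2.62 CPM of Lamp3 and 88.0 CPM of Sox2, and 82 mouse Epcam+ cells had 20 or more UMIs of Scgb3a2.

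The excluded cells were deep, with medians of 41016.5 UMIs in rat and 33077 UMIs in mouse. In the excluded rat cells Scgb1a1, the club cell secretory protein, was at 1428 CPM and Scgb3a2 at 243 CPM. In the excluded mouse cells Scgb1a1 was at 648 CPM and Scgb3a2 at 9467 CPM. Within the limit, Scgb1a1 still stood at 294 CPM in rat cells, against 1.19 CPM in mouse cells, while mesenchymal cells of the same library had 6.44 CPM in rat and 1.39 CPM in mouse. When only Scgb3a2 was limited to fewer than 20 UMIs, a setting chosen after seeing the data, 218 rat and 902 mouse cells were left. Those rat cells were then split by Scgb1a1 after each was thinned to 3000 UMIs, which left out 3 shallower cells. Sftpc was at 2672 CPM in the 79 cells with no Scgb1a1 UMI, 6564 CPM in the 73 cells with 1 to 2, and 10883 CPM in the 63 cells with 3 or more. Lamp3 went the same way, at 61.9, 166 and 294 CPM, and the AT1 gene Hopx the other way, at 108, 67.5 and 40.6 CPM. The rat cells thus held Nkx2-1, but the rule took in only part of the rat Sftpc-rich cells. The compared cells are called Epcam+ Scgb-low cells here, and values with Scgb3a2 alone limited stand beside the results that they move.

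**Figure D1:**
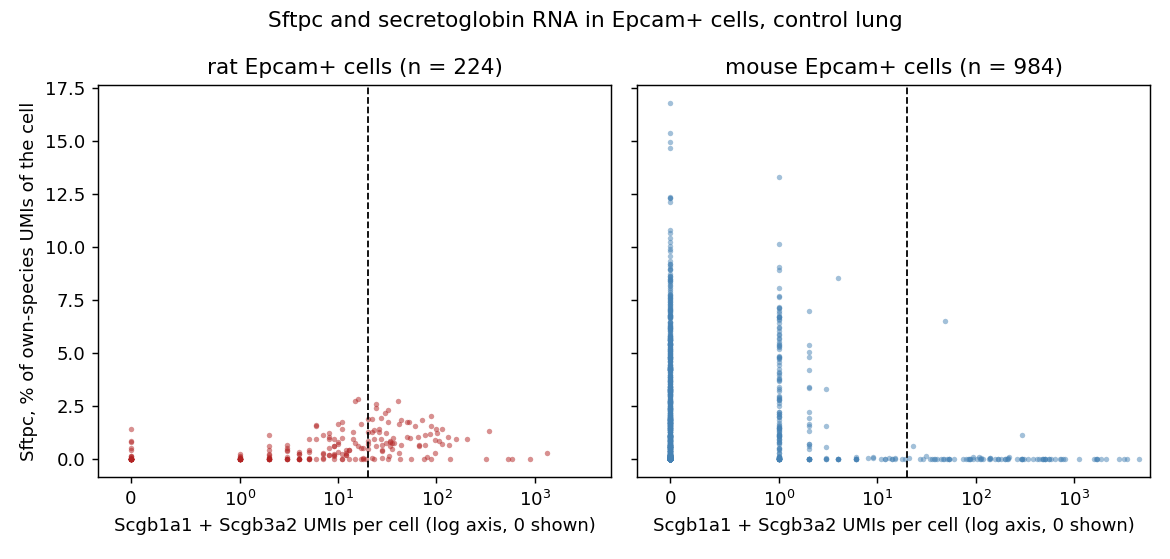
Each point is an Epcam+ cell of the control library, rat on the left (224 cells) and mouse on the right (984 cells), with its Scgb1a1 and Scgb3a2 UMIs on a log axis and Sftpc as a percent of its own-species UMIs. The dashed line is the limit of 20 UMIs; Sftpc-rich rat cells lie on both sides of it and reach 2.84%, and Sftpc-rich mouse cells lie nearly all to its left and reach 16.8%.

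The cells near the limit show the same. Just inside it, with 15 to 19 secretoglobin UMIs, 12 rat cells had 6032 CPM of Sftpc and 4 mouse cells had 115 CPM. Just outside it, with 20 to 24 UMIs, 14 rat cells had 10061 CPM and 2 mouse cells had 1228 CPM. At the Epcam limit, 4 rat and 107 mouse cells had exactly 2 UMIs, and 12 rat and 553 mouse cells with low secretoglobins had 1. Sftpc was at 3650 CPM in those 4 rat cells and 5098 CPM in those 107 mouse cells, and at 335 CPM in the 12 rat and 1080 CPM in the 553 mouse cells just outside.

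Levels were compared over 8304 genes, those with the same symbol in both gene sets, enough UMIs in each species to be counted and at least 10 CPM in either. Each difference is log2 of rat over mouse CPM after adding 10 CPM to both, which understates the change of low genes. Of these genes, 700 (8.43%) were over 2-fold higher in rat cells, 961 (11.6%) over 2-fold higher in mouse cells, 80.0% lay within 2-fold, and the median log2 difference was 0.09. Some of these genes differed in mesenchyme too. In Epcam-negative mesenchymal cells of the same library (422 rat and 3180 mouse cells), 258 of the 700 genes (36.9%) were also over 2-fold higher in rat, and 580 of the 961 (60.4%) over 2-fold higher in mouse. Over all 8304 genes, 475 (5.72%) were over 2-fold higher in rat mesenchyme and 907 (10.9%) over 2-fold higher in mouse mesenchyme. For that reason each difference is also given relative to mesenchyme, as the epithelial minus the mesenchymal log2 difference. The rat and mouse mesenchymal cells were not chosen by all the same genes and may differ in make-up. Values relative to mesenchyme carry any such difference too, and its part was not tested. On that scale 283 of 7376 genes (3.84%) were over 2-fold higher in rat and 283 (3.84%) over 2-fold higher in mouse, with a median of 0.15. Genes absent from mesenchyme have no such value, and that of Sftpc, which mesenchymal cells are not known to make but which was at 10.04 CPM in rat and 238 CPM in mouse mesenchyme, is not informative.

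**Figure D2:**
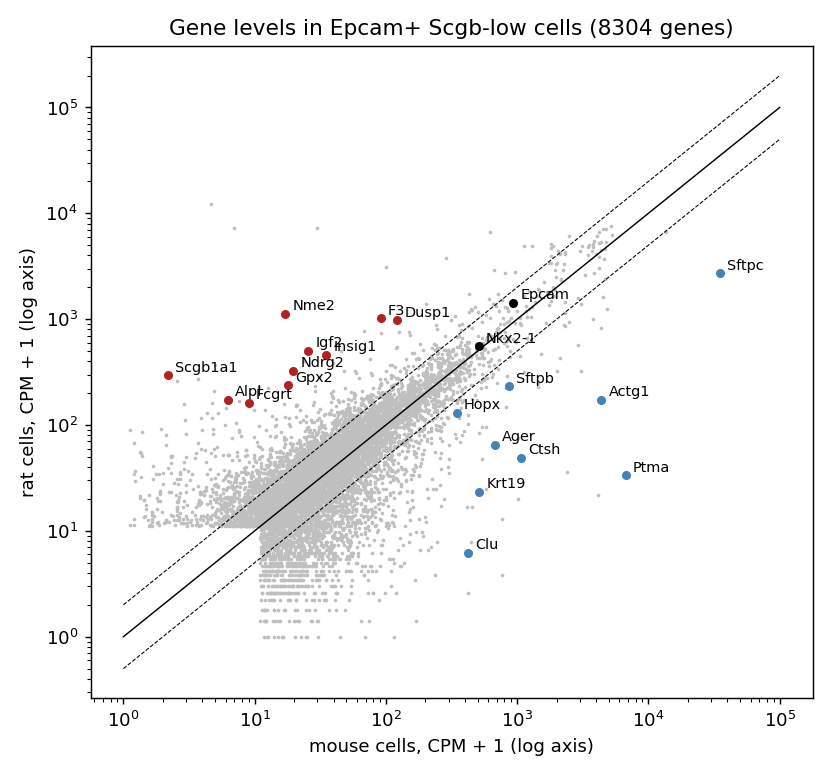
Each point is a gene, with its level in 146 rat cells on the vertical and in 901 mouse cells on the horizontal axis (CPM + 1, log axes); the solid line marks equal levels and the dashed lines 2-fold. Epcam and Nkx2-1 lie near the solid line, Sftpc, Ager, Ctsh and Clu far on the mouse side, and F3, Insig1 and Dusp1 on the rat side.

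Most of the largest differences were those of abundant genes that most cells use, and they were found in mesenchyme too. Ptma, a nuclear acidic protein, was at 32.5 CPM in rat cells and 6717 CPM in mouse cells, and at 38.1 CPM in rat and 4738 CPM in mouse mesenchyme. Sumo2, a ubiquitin-like modifier, was at 2.81 CPM in rat and 766 CPM in mouse cells, and at 5.41 CPM in rat and 671 CPM in mouse mesenchyme. In the other direction, Nme2, a nucleoside diphosphate kinase, was at 1123 CPM in rat and 16.2 CPM in mouse cells, with 1017 CPM in rat and 20.3 CPM in mouse mesenchyme. Of the 24 genes with the largest differences (12 on each side), Clu and Ctsh on the mouse side had the opposite sign in mesenchyme. Scgb1a1 and Alpl on the rat side had 0.53 and 0.81 in mesenchyme. Because Scgb1a1 helped choose the cells, its place among the 24 is description only. Abundant genes such as Ptma, Sumo2 and Nme2 have near-identical copies or pseudogenes among which counting can split reads, so their values are uncertain.

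**Figure D3:**
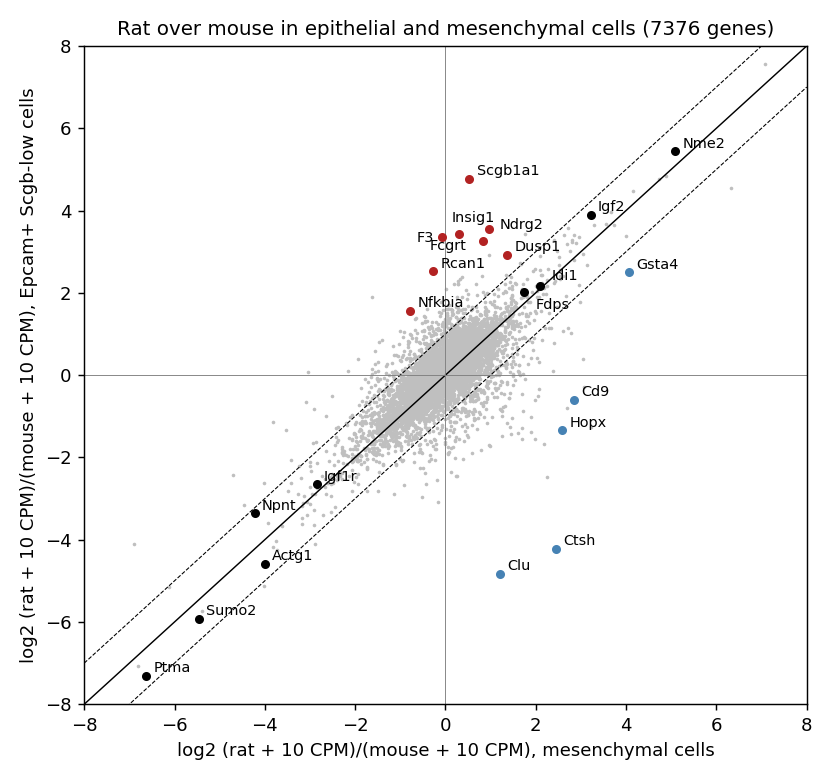
Each point is 1 of 7376 genes, with log2 of rat over mouse in mesenchymal cells on the horizontal and in Epcam+ Scgb-low cells on the vertical axis. The solid line marks equal differences and the dashed lines a 2-fold departure; Ptma, Sumo2 and Nme2 lie along it, red genes such as F3 and Insig1 above it, and blue genes such as Ctsh, Clu and Hopx below it.

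Surfactant genes were lower in the rat cells. Of 12 genes of surfactant and lamellar bodies compared (of 14 listed), 1 was over 2-fold higher in rat cells and 8 over 2-fold higher in mouse cells, against 8.43% and 11.6% of all genes. Their median log2 difference was -1.72, against 0.09 for all genes. Sftpc had a log2 difference of -3.68. Sftpb, surfactant protein B, was at 231 CPM (213 to 251) in rat cells and 859 CPM (849 to 870) in mouse cells. Napsa, a protease that processes it, was at 123 CPM in rat and 419 CPM in mouse cells. Abca3, which carries lipid into lamellar bodies, was at 33.3 CPM in rat and 136 CPM in mouse cells. How large this difference was depended on the Scgb1a1-rich rat cells. With Scgb3a2 alone limited, the list's median was -0.52, Sftpc was at 6344 CPM in rat and 34849 CPM in mouse cells (log2 -2.46), and Sftpb at 542 CPM in rat and 859 CPM in mouse cells (-0.66).

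Several surfactant genes changed place with that setting. Sftpa1, a surfactant collectin, was at 265 CPM in rat and 557 CPM in mouse cells (log2 -1.04), but at 554 CPM in rat and 557 CPM in mouse cells with Scgb3a2 alone limited (-0.01). Lamp3, of the lamellar body membrane, was at 63.8 CPM in rat and 69.6 CPM in mouse cells, and then at 163 CPM in rat and 69.5 CPM in mouse cells (1.12). Slc34a2, a phosphate transporter of AT2 cells, was at 86.2 CPM in rat and 101 CPM in mouse cells, and then at 276 CPM in rat and 101 CPM in mouse cells (1.37). Sftpd, the other collectin, was the member over 2-fold higher in rat cells, at 50.1 CPM in rat and 10.4 CPM in mouse cells. With Scgb3a2 alone limited, 5 of the 12 genes were still over 2-fold higher in mouse cells, Sftpc, Ctsh, Lpcat1 and Abca3 among them. Another 3 of the 12 were then over 2-fold higher in rat cells. Over all genes at that setting, 12.3% were over 2-fold higher in mouse and 8.04% in rat cells.

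Ctsh encodes cathepsin H, a protease that takes part in processing surfactant proteins (ENSRNOG00000014064 in rat; ENSMUSG00000032359 in mouse, mm10 chromosome 9, 90054152 to 90076089). It was at 48.1 CPM (39.9 to 57.5) in rat cells and 1077 CPM (1065 to 1089) in mouse cells, a log2 difference of -4.23, and -3.85 with Scgb3a2 alone limited. Mesenchyme had it the other way round, at 142 CPM in rat and 17.9 CPM in mouse, so its difference relative to mesenchyme was -6.67, the lowest of all named genes. Lpcat1, which makes the saturated phosphatidylcholine of surfactant, was at 53.7 CPM in rat and 263 CPM in mouse cells (-2.10; -1.999 with Scgb3a2 alone limited). For Abca3 the difference was -1.76, and -1.36 with Scgb3a2 alone limited. Npc2, a sterol carrier of lysosomes and lamellar bodies, was at 430 CPM in rat and 2101 CPM in mouse cells, a log2 difference of -2.26.

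Single cells differed in the same direction. Sftpc took a median of 0.0524% of a rat cell's UMIs and 1.52% of a mouse cell's, and at most 2.84% in rat and 16.8% in mouse. At least 1% of UMIs were Sftpc in 14 of 146 rat cells (9.59%; 5.34 to 15.6) and in 523 of 901 mouse cells (58.0%; 54.7 to 61.3). With Scgb3a2 alone limited the shares were 48 of 218 rat cells (22.0%; 16.7 to 28.1) and 523 of 902 mouse cells (58.0%; 54.7 to 61.2). At least 3% was reached by 0 of those 218 rat cells (exact interval up to 1.68%) and by 309 of the 902 mouse cells (34.3%). Among AT2-type cells picked by a UMI of Lamp3 or Slc34a2 and Scgb3a2 under 20 (122 rat and 359 mouse cells, a setting chosen after seeing the data), Sftpc was at 8173 CPM in rat and 46198 CPM in mouse cells. Its log2 difference was then -2.50, that of Sftpb -0.77 and that of Sftpa1 -0.12.

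**Figure D4:**
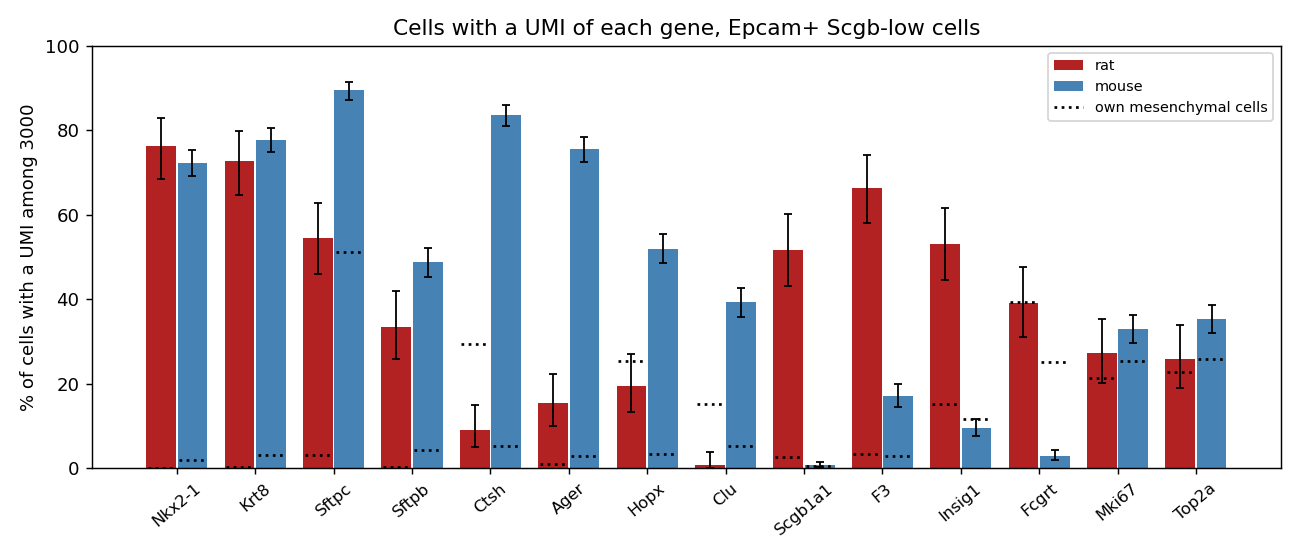
Bars give the percent of Epcam+ Scgb-low cells with a UMI of each gene after thinning to 3000 UMIs (rat left, 143 cells; mouse right, 825 cells) with exact 95% intervals, and dotted marks the same percent in mesenchymal cells of the species. Nkx2-1 and Krt8 stand alike, Sftpc, Ctsh, Ager, Hopx and Clu higher in mouse, and F3 and Insig1 higher in rat. Scgb1a1 also stands higher in rat, but its level helped choose the cells. The mark for mouse Sftpc stands at 51.2%.

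Shares of cells were also read after thinning each cell to 3000 UMIs, which left out 3 rat and 76 mouse cells. Sftpc was then found in 54.5% of rat cells (46.0 to 62.9) and 89.5% of mouse cells (87.2 to 91.5), where mesenchyme had 3.11% in rat and 51.2% in mouse. Mesenchymal cells had medians of 8435 UMIs in rat and 9316.5 UMIs in mouse. Mouse Sftpc RNA was also found in 85.7% of all rat cells, so a mouse cell with a single UMI cannot be read as expressing it. Unthinned, Sftpc was found in 68.5% of rat and 98.1% of mouse cells. The levels per cell spanned a wide range in both species. The median was 524 CPM, the 90th percentile 9828 CPM and the highest cell 28405 CPM in rat, against 15227, 66880 and 168030 CPM in mouse.

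Ager, the receptor for advanced glycation end products and the best known AT1 gene, was lower in the rat cells than in the mouse cells. It was at 63.8 CPM (54.2 to 74.5) in rat and 677 CPM (667 to 686) in mouse cells, a log2 difference of -3.22 (-3.69 with Scgb3a2 alone limited). After thinning, a UMI of it was found in 15.4% of rat cells (9.90 to 22.4) and 75.6% of mouse cells (72.6 to 78.5), and in 0.957% of rat and 2.83% of mouse mesenchymal cells. Of 13 AT1 genes compared (of 16 listed), 2 (15.4%, against 8.43% of all genes) were over 2-fold higher in rat cells. Another 6 (46.2%, against 11.6%) were over 2-fold higher in mouse cells. The median was -0.66 (-1.15 with Scgb3a2 alone limited). Akap5, a kinase anchoring protein, was at 18.4 CPM in rat and 158 CPM in mouse cells. Clic5, an intracellular chloride channel protein, was at 20.05 CPM in rat and 99.0 CPM in mouse cells. Hopx, a transcriptional cofactor of AT1 cells, was at 130 CPM in rat and 345 CPM in mouse cells (-1.34), while in mesenchyme it was at 127 CPM in rat and 12.8 CPM in mouse.

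The AT1 genes did not move as a block. Pdpn, the surface glycoprotein podoplanin, was at 125 CPM in rat and 35.7 CPM in mouse cells (log2 1.57; 0.93 with Scgb3a2 alone limited). Igfbp2, a binding protein of insulin-like growth factors known from mature mouse AT1 cells, was at 804 CPM in rat and 245 CPM in mouse cells (1.67). Vegfa, the endothelial growth factor that AT1 cells secrete, was at 156 CPM in rat and 88.0 CPM in mouse cells (0.76). Gprc5a, a retinoic acid induced receptor, was at 247 CPM in rat and 175 CPM in mouse cells (0.48), and Cav1, caveolin, at 46.1 CPM in rat and 56.8 CPM in mouse cells (-0.25). Over the 7 AT1 genes that could be set against mesenchyme the median was 0.09, and these did not include Ager, Akap5 or Clic5.

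How Sftpc lay between cells with and without Ager changed with how the cells were split. By whether 3000 UMIs drawn from each cell held one of Ager, Sftpc was at 388 CPM (323 to 461) in the 22 rat cells whose draw held Ager and 3056 CPM (2983 to 3130) in the 121 rat cells whose draw held none. In mouse it was at 32864 CPM (32789 to 32939) in the 624 cells whose draw held Ager and 40968 CPM (40826 to 41111) in the 201 cells whose draw held none. The cells whose draw held none were not cells without Ager: over all their UMIs, 37.2% of these rat cells and 68.2% of these mouse cells had one of Ager, which was at 49.5 CPM in rat and 312 CPM in mouse. Hopx was at 332 CPM in rat cells whose draw held Ager and 99.9 CPM in the other rat cells, and at 416 CPM in mouse cells whose draw held Ager and 141 CPM in the other mouse cells. Split by any Ager UMI without thinning, Sftpc was at 1557 CPM in the 67 rat cells with Ager and 4620 CPM in the 79 rat cells without it. In mouse it was at 35650 CPM in the 798 cells with Ager and 5654 CPM in the 103 cells without it, the opposite order. The mouse cells without an Ager UMI were shallow, with a median of 3743 UMIs, against 16948 UMIs in those with one; the medians in rat were 9976 UMIs without and 15158 UMIs with Ager. Among cells without an Ager UMI the surfactant list's median turned to 1.00.

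**Figure D5:**
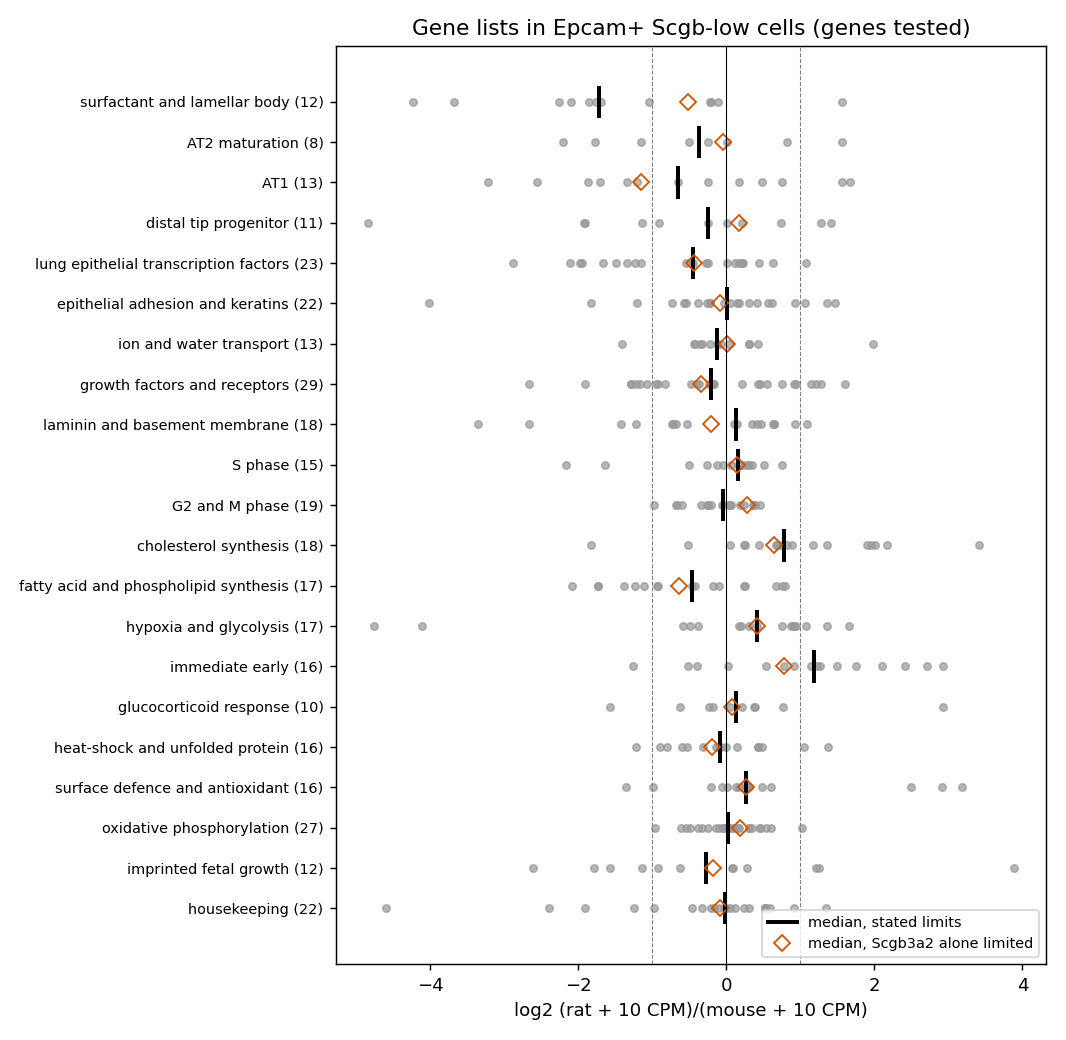
Each row is a gene list with the number of its genes compared, each point a gene's log2 difference of rat over mouse, the black bar the list's median and the orange diamond its median with Scgb3a2 alone limited. The surfactant median is -1.72 and moves to -0.52, the AT1 median moves from -0.66 to -1.15, and the medians for cholesterol synthesis (0.78) and immediate early genes (1.19) lie on the rat side under both limits.

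Transcription factors of the lung epithelium leaned to the mouse side. Of 23 compared, 1 (4.35%, against 8.43% of all genes) was over 2-fold higher in rat cells and 9 (39.1%, against 11.6%) over 2-fold higher in mouse cells, with a median of -0.45 and, over the 12 with a mesenchymal value, -0.03 relative to mesenchyme. Foxp2, a forkhead repressor of the distal lung, was at 470 CPM in rat and 408 CPM in mouse cells. Etv5, a target of FGF signalling, was at 225 CPM in rat and 224 CPM in mouse cells. Foxa2, a forkhead factor needed for alveolar maturation, was the member over 2-fold higher in rat cells, at 197 CPM in rat and 88.6 CPM in mouse cells. Its paralog Foxa1 was at 5.21 CPM in rat and 55.4 CPM in mouse cells. Nfib, a nuclear factor of lung maturation, was at 26.1 CPM in rat and 256 CPM in mouse cells (-2.88), but in mesenchyme too it was at 140 CPM in rat and 1099 CPM in mouse, so relative to mesenchyme its difference was 0.00.

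Genes of the distal tip progenitors went both ways. Of 11 compared, 2 (18.2%, against 8.43% of all genes) were over 2-fold higher in rat cells. Over 2-fold higher in mouse cells were 4 (36.4%, against 11.6%). Their median was -0.25, but 0.17 with Scgb3a2 alone limited and 1.46 in cells without an Ager UMI. Sox9, the tip transcription factor, was at 108 CPM in rat and 130 CPM in mouse cells. Mycn, a growth-promoting factor of the tip, was at 55.3 CPM in rat and 14.6 CPM in mouse cells, and Bmp4, a morphogen of the tip, at 323 CPM in rat and 127 CPM in mouse cells. Id2, an inhibitor of differentiation, was at 173 CPM in rat and 392 CPM in mouse cells. Shh, the hedgehog ligand that the epithelium sends to the mesenchyme, was at 12.03 CPM in rat and 72.6 CPM in mouse cells. The widest gap was that of Clu, a secreted chaperone (ENSRNOG00000016460 in rat; ENSMUSG00000022037 in mouse, mm10 chromosome 14, 65968483 to 65981547). Clu was at 5.21 CPM (2.78 to 8.91) in rat and 423 CPM (416 to 430) in mouse cells, a log2 difference of -4.83. Rat mesenchyme had 141 CPM of Clu and mouse mesenchyme 55.2 CPM, so the rat gene was counted in other cells of the same library.

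Of 22 epithelial junction and keratin genes, 3 (13.6%, against 8.43% of all genes) were over 2-fold higher in rat cells. Over 2-fold higher in mouse cells were 3 (13.6%, against 11.6%). The other 16 (72.7%, against 80.0%) lay within 2-fold, and the median of the list was 0.01. Krt8 and Krt18, the paired keratins of simple epithelium, were at 369 and 539 CPM in rat and at 544 and 708 CPM in mouse cells. Krt19, another simple keratin, was at 22.5 CPM (16.96 to 29.2) in rat and 512 CPM (504 to 520) in mouse cells, with 0.258 CPM in rat and 22.2 CPM in mouse mesenchyme. Cldn3, a tight junction protein, was at 225 CPM in rat and 821 CPM in mouse cells, and Cldn18, the alveolar claudin, at 448 CPM in rat and 1044 CPM in mouse cells. Dsp, the desmosomal plaque protein, was at 180 CPM in rat and 64.1 CPM in mouse cells, and Spint2, a protease inhibitor, at 1255 CPM in rat and 445 CPM in mouse cells (1.47; -0.16 relative to mesenchyme). Among 13 ion and water transport genes, 11 (84.6%, against 80.0% of all genes) lay within 2-fold. Their median was -0.13 (0.01 with Scgb3a2 alone limited). The water channel Aqp4 was at 37.3 CPM in rat and 1.91 CPM in mouse cells, and the bicarbonate transporter Slc4a4 at 8.42 CPM in rat and 39.0 CPM in mouse cells.

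Cholesterol synthesis genes were higher in the rat cells. Of 18 compared, 7 (38.9%, against 8.43% of all genes) were over 2-fold higher in rat cells. Over 2-fold higher in mouse cells was 1 (5.56%, against 11.6%). Of the 18, 16 lay above 0, with a median of 0.78 (0.65 with Scgb3a2 alone limited, 0.53 relative to mesenchyme). Insig1 led, a membrane protein that holds back the sterol-sensing transcription factors (ENSRNOG00000006859 in rat; ENSMUSG00000045294 in mouse, mm10 chromosome 5, 28071363 to 28078662). It was at 459 CPM (433 to 487) in rat and 33.9 CPM (31.9 to 36.1) in mouse cells, a log2 difference of 3.42 (2.98 with Scgb3a2 alone limited). Mesenchyme had 57.2 CPM of it in rat and 44.3 CPM in mouse. After thinning, a UMI of Insig1 was found in 53.1% of rat cells (44.6 to 61.5) and 9.45% of mouse cells (7.55 to 11.7), and in 15.3% of rat and 11.7% of mouse mesenchymal cells.

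The enzymes over 2-fold higher in rat cells were of 2 kinds. Cyp51, Msmo1 and Hmgcs1, enzymes of the sterol and early mevalonate steps, were higher in rat epithelium but not over 2-fold so in mesenchyme. Cyp51 was at 142 CPM in rat and 30.5 CPM in mouse cells, with 1.53 relative to mesenchyme. Hmgcs1 was at 131 CPM in rat and 52.4 CPM in mouse cells, with 1.21 relative to mesenchyme. Idi1, Fdps and Sqle, enzymes of the isoprenoid and squalene steps, were over 2-fold higher in rat mesenchyme as well. Idi1 was at 208 CPM in rat and 38.4 CPM in mouse cells, with 0.07 relative to mesenchyme, and Fdps at 276 CPM in rat and 60.9 CPM in mouse cells, with 0.26. The exception on the mouse side was the mevalonate kinase Mvk, at 1.20 CPM (0.248 to 3.52) in rat and 29.9 CPM in mouse cells, and at 2.58 CPM in rat and 54.8 CPM in mouse mesenchyme.

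Fatty acid and phospholipid genes leaned the other way. Of 17 compared, 0 were over 2-fold higher in rat cells, against 8.43% of all genes. Over 2-fold higher in mouse cells were 6 (35.3%, against 11.6%). Their median was -0.46 (-0.64 with Scgb3a2 alone limited, -0.04 relative to mesenchyme). Fasn, fatty acid synthase, was at 94.6 CPM in rat and 102 CPM in mouse cells. Plin2, which coats lipid droplets, was at 4.41 CPM (2.202 to 7.89) in rat and 51.2 CPM (48.7 to 53.8) in mouse cells. Pcyt1a, the rate-limiting enzyme of phosphatidylcholine synthesis, was at 16.0 CPM in rat and 46.2 CPM in mouse cells. Acly, which supplies acetyl-CoA, was at 111 CPM in rat and 60.1 CPM in mouse cells.

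Scgb1a1 helped choose the cells and is left aside here. The named gene with the next highest difference relative to mesenchyme (3.43) was F3, tissue factor, the membrane protein that starts blood coagulation (ENSRNOG00000011800 in rat, ENSMUSG00000028128 in mouse, mm10 chromosome 3, 121723537 to 121735048). It was at 1018 CPM (979 to 1058) in rat and 90.2 CPM (86.8 to 93.6) in mouse cells, a log2 difference of 3.36 (2.81 with Scgb3a2 alone limited), with 10.6 CPM in rat and 11.6 CPM in mouse mesenchyme. After thinning, F3 was found in 66.4% of rat cells (58.1 to 74.1) and 17.1% of mouse cells (14.6 to 19.8), against 3.35% of rat and 2.80% of mouse mesenchymal cells. Along the split by Scgb1a1 it ran against Sftpc, at 998, 645 and 380 CPM. Ndrg2, a differentiation-associated gene, was at 326 CPM in rat and 18.6 CPM in mouse cells. Fcgrt, the neonatal Fc receptor that carries IgG across epithelia, was at 161 CPM (146 to 178) in rat and 8.02 CPM (7.04 to 9.09) in mouse cells, with 168 CPM in rat and 89.6 CPM in mouse mesenchyme. Rcan1, an inhibitor of calcineurin, was at 208 CPM in rat and 27.8 CPM in mouse cells, and Nfkbia, an inhibitor of NF-kappaB, at 479 CPM in rat and 156 CPM in mouse cells.

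Alpl, the tissue-nonspecific alkaline phosphatase long used to stain rat AT2 cells, was at 172 CPM (156 to 189) in rat and 5.25 CPM (4.46 to 6.13) in mouse cells (log2 3.57), and at 327 CPM in rat and 5.25 CPM in mouse cells with Scgb3a2 alone limited (4.47). Mesenchyme held 8.24 CPM of Alpl in rat and 0.371 CPM in mouse. Among 16 surface defence and antioxidant genes, 3 (18.75%, against 8.43% of all genes) were over 2-fold higher in rat cells. Over 2-fold higher in mouse cells was 1 (6.25%, against 11.6%). Gpx2, the glutathione peroxidase of epithelia, was at 236 CPM in rat and 16.9 CPM in mouse cells. Nqo1, a quinone reductase, was at 80.6 CPM in rat and 2.01 CPM in mouse cells. Gsta4, a glutathione transferase, was at 749 CPM in rat and 125 CPM in mouse cells, but relative to mesenchyme its difference was -1.56. The mouse side held Cd14, a receptor for bacterial lipopolysaccharide, with 0 UMIs in rat cells (which allows up to 1.20 CPM) and 15.5 CPM in mouse cells.

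Immediate early genes, which cells switch on within minutes of a stimulus, had the highest list median of those on the rat side with more than 3 genes compared. Of 16, 9 (56.25%, against 8.43% of all genes) were over 2-fold higher in rat cells. Over 2-fold higher in mouse cells was 1 (6.25%, against 11.6%). The median was 1.19 (0.77 with Scgb3a2 alone limited), and 0.37 relative to mesenchyme. Dusp1, a phosphatase of MAP kinases, was at 978 CPM in rat and 120 CPM in mouse cells, and at 455 CPM in rat and 170 CPM in mouse mesenchyme. Egr1 was at 2901 CPM in rat and 668 CPM in mouse cells, and at 1183 CPM in rat and 417 CPM in mouse mesenchyme. Ier3 was at 1376 CPM in rat and 202 CPM in mouse cells. Fos was at 1103 CPM in rat and 577 CPM in mouse cells, and Jun at 4409 CPM in rat and 3022 CPM in mouse cells.

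All 19 G2 and M phase genes compared lay within 2-fold, against 80.0% of all genes, with a median of -0.04 (0.29 with Scgb3a2 alone limited, -0.11 relative to mesenchyme). Mki67, the Ki-67 antigen, was at 201 CPM (184 to 220) in rat and 243 CPM (238 to 249) in mouse cells, and after thinning in 27.3% of rat cells (20.2 to 35.4) and 33.0% of mouse cells (29.8 to 36.3). Top2a, a topoisomerase of dividing cells, was at 292 CPM in rat and 278 CPM in mouse cells. Of 15 S phase genes, 13 (86.7%, against 80.0% of all genes) lay within 2-fold. Tyms, thymidylate synthase, was at 32.1 CPM in rat and 179 CPM in mouse cells, and Rrm2, of ribonucleotide reductase, at 14.4 CPM in rat and 65.8 CPM in mouse cells, with differences of -0.78 and -0.59 relative to mesenchyme.

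Imprinted genes of fetal growth split. Of 12 compared, 3 (25%, against 8.43% of all genes) were over 2-fold higher in rat cells. Over 2-fold higher in mouse cells were 4 (33.3%, against 11.6%). Igf2, insulin-like growth factor 2, was at 502 CPM (475 to 531) in rat and 24.5 CPM (22.8 to 26.4) in mouse cells, and at 175 CPM in rat and 9.87 CPM in mouse mesenchyme, so relative to mesenchyme the difference was 0.67. Its receptors went apart: Igf2r, which clears it, was at 126 CPM in rat and 48.4 CPM in mouse cells, and Igf1r, which signals, at 3.61 CPM in rat and 75.8 CPM in mouse cells (0.19 relative to mesenchyme). Dlk1, a membrane protein of the Notch ligand family, was at 322 CPM in rat and 2020 CPM in mouse cells. Cdkn1c, a cell cycle inhibitor, was at 318 CPM in rat and 1122 CPM in mouse cells. Over all 29 growth factors and receptors compared, 4 (13.8%, against 8.43% of all genes) were over 2-fold higher in rat cells. Over 2-fold higher in mouse cells were 7 (24.1%, against 11.6%), and the median was -0.20. Jag1 and Notch2, a Notch ligand and receptor, were at 47.7 and 45.3 CPM in rat and at 8.91 and 14.9 CPM in mouse cells, with 1.03 and 1.44 relative to mesenchyme. Fgfr2, the receptor through which mesenchymal FGF acts on the epithelium, was at 274 CPM in rat and 235 CPM in mouse cells.

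Basement membrane genes lay within 2-fold in 13 of 18 cases (72.2%, against 80.0% of all genes). Their median was 0.13 (-0.21 with Scgb3a2 alone limited). Lama5, a laminin chain, was at 216 CPM in rat and 154 CPM in mouse cells, and Itgb6, an integrin chain of injured and developing epithelium, at 71.8 CPM in rat and 28.2 CPM in mouse cells. Col4a2, a collagen IV chain, was at 15.2 CPM in rat and 150 CPM in mouse cells, and its partner Col4a1 at 162 CPM in rat and 275 CPM in mouse cells. Npnt, nephronectin, was at 3.61 CPM in rat and 129 CPM in mouse cells, a difference of -3.36 that was 0.87 relative to mesenchyme.

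RNA of other cell types was present at low levels and unequal between the species. Over the genes compared, 5 fibroblast genes summed to 107 CPM in rat and 328 CPM in mouse cells. Endothelial genes (5 compared) summed to 36.9 CPM in rat and 164 CPM in mouse cells, with 0 UMIs of Cdh5 in rat cells. Red cell genes (3 compared) summed to 50.1 CPM in rat and 636 CPM in mouse cells, and smooth muscle genes (3) to 172 CPM in rat and 91.5 CPM in mouse cells. None of 8 immune genes reached 10 CPM in either species. The part of such RNA in the results was not tested. The 12 shared mitochondrial genes summed to 48023 CPM in rat and 7153 CPM in mouse cells, and to 50533 CPM in rat and 10109 CPM in mouse mesenchyme. Over all mitochondrial genes the median shares were closer, at 5.27% of UMIs in rat and 2.38% in mouse cells. The sums over shared genes therefore do not give the gap in all mitochondrial RNA.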

How the data were processed

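The authors deposited UMI counts per gene and barcode, raw whole numbers; Cell Ranger 6.0.1 made the control matrix, per the file headers. Builds mm10 and rn6 and Seurat 4.3 are named in the submitters' processing notes; whether intronic reads were counted is not given in the sources used here. The joint gene set held 55403 mouse and 25399 rat features, with 16100 shared symbols (the feature with most UMIs where several share a symbol), of which 10442 had 20 or more UMIs in the kept cells of each species. Shared symbols held 89.6% of rat and 88.4% of mouse UMIs. The mutant library was read only for shared barcodes.

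For each species the UMIs of its cells were added up and divided by the own-species total (CPM). Levels are not divided by gene length. Intervals are exact Poisson for CPM and Clopper-Pearson for shares of cells, both at 95%. A count of 0 was bounded at 3 UMIs. Mixed barcodes (882) were left out. Mesenchymal cells had 0 Epcam UMIs, 0 of Pecam1 and Cdh5, and 3 or more of Col1a2 and Col3a1; the rat features used lack Pecam1 and Col1a2, so rat cells rested on Cdh5 and Col3a1. Doublets were scored with Scrublet in Scanpy 1.11.5 and not removed, except as an alternative: 2 of 725 rat and 159 of 7414 mouse cells scored 0.2 or more. The automatic threshold called only 2 rat and 1 mouse cells, so the caller cannot be taken to have worked.

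Genes were named by size: at least 100 CPM in either species, the 12 highest and 12 lowest by log2 difference and again relative to mesenchyme, leaving out mitochondrial, ribosomal protein, haemoglobin and sex-linked genes, plus members of gene lists. A few genes that this rule or the lists take in are not reported here. Members and lists were chosen with earlier results of these data known. Settings that limit Scgb3a2 alone, drop the secretoglobin limit, or need a Lamp3 or Slc34a2 UMI were chosen after seeing the data. Symbols, not an orthology table, paired the genes, and mouse positions are from GENCODE vM21. The steps were tested on simulated counts. Python 3.11.15, NumPy 2.4.6, SciPy 1.17.1 and pandas 2.3.3 were used.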

Additional observations from a re-analysis of the deposited data

Results flagged for a closer look

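A reporter RNA lies outside the gene comparison and was read separately. EGFP, a sequence added to the gene set, was at 118 CPM of all UMIs in the rat Epcam+ Scgb-low cells and at 8160 CPM in the mouse cells. An EGFP UMI was found in 74.7% of rat cells (66.8 to 81.5), with a median of 1 UMI per cell, and in 99.9% of mouse cells (99.4 to 99.997), with a median of 95. It drew attention because it is a strong signal in data that no comparison used.

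Mixed barcodes, with between 10% and 90% mouse UMIs, were in no comparison either. Rat Sftpc was at 6305 CPM of rat UMIs (6182 to 6431) in the 103 mixed barcodes with 2 or more rat Epcam UMIs. No secretoglobin limit was set on these barcodes, so they are not like the rat Epcam+ Scgb-low cells, which had 2713 CPM. The rat Epcam+ cells above the limit had 8034 CPM. The 103 mixed barcodes had a median of 3614 rat UMIs and of 20.8% mouse UMIs. Of 56971 rat Sftpc UMIs in all, 6766 lay in the rat Epcam+ Scgb-low cells, 38360 in the rat cells above the secretoglobin limit and 10400 in mixed barcodes. Of 1122902 mouse Sftpc UMIs, 1056337 lay in the mouse Epcam+ Scgb-low cells, 6059 in the mouse cells above the limit and 24425 in mixed barcodes.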

How the results depend on the processing

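The differences rest on 1 library and on 146 rat cells, so a rat count of 0 allows up to 1.20 CPM, against 0.0990 CPM in mouse. Recomputed were the counts of differing genes and the surfactant, AT1 and G2 and M phase medians. Of these 90 values, 63 kept their size, 26 moved and 1 turned. Of 1238 values for other lists and named genes, 895 kept their size, 334 moved and 9 turned. A value counted as turned only if its sign changed and its main log2 difference was over 1 in size. Counting every change of sign, 47 of 54 values of the 3 medians and 1158 of the 1238 others had the sign of the main result. The 700 genes higher in rat became 1230 with a pseudocount of 1 CPM, 261 at 100 CPM or more and 283 relative to mesenchyme, and the 961 higher in mouse 1478, 248 and 283, and 1627 in cells without an Ager UMI. The surfactant median of -1.72 became -0.37 with no secretoglobin limit, -0.52 with Scgb3a2 alone limited, -0.56 in cells with Lamp3 or Slc34a2, -2.77 with secretoglobins under 5, -1.09 as a mean over cells, -1.20 after thinning and 1.00 without Ager. Lamp3 and Slc34a2 are themselves members of the surfactant list, so the -0.56 in cells chosen by them is description only. In the same order of settings the AT1 median of -0.66 became -1.02, -1.15, -1.04, -0.48, -0.998, -1.15 and 0.45, and it was -0.93 at 100 CPM or more and 0.0865 relative to mesenchyme. The G2 and M phase median of -0.04 became 0.29 with no secretoglobin limit, 0.29 with Scgb3a2 alone limited, 0.42 in cells with Lamp3 or Slc34a2 and -0.58 without Ager. Single values that turned were, relative to mesenchyme, Gng10 (-1.79), Ube2s (-0.0747), Tmsb10 (0.97) and Mfap4 (2.79); without Ager, Hopx (0.45), Tmsb4x (0.59) and Lgals3 (0.0153); and the neuroendocrine and basal median, -0.25 as a mean over cells and -0.34 after thinning. Stricter species limits (95% and 5%) left 60 rat cells, with 729 genes higher in rat and 996 in mouse. Beyond the cells and genes each setting takes, the cause was not tested. No paired analysis was possible because there is 1 library and no replicate.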

Other observations

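Of 27 nuclear genes of oxidative phosphorylation compared, 26 (96.3%, against 80.0% of all genes) lay within 2-fold between rat and mouse cells, with a median log2 difference of 0.03. Of 16 heat-shock and unfolded protein genes, 2 (12.5%, against 8.43% of all genes) were over 2-fold higher in rat cells. Over 2-fold higher in mouse cells was 1 (6.25%, against 11.6%). Atf4, a stress-induced transcription factor, was at 508 CPM in rat and 190 CPM in mouse cells. Xbp1, a factor of secretory cells, was at 19.6 CPM in rat and 59.3 CPM in mouse cells. Among 17 hypoxia and glycolysis genes the median was 0.42. Of these, 3 (17.6%) were over 2-fold higher in rat and 2 (11.8%) in mouse cells, against 8.43% and 11.6% of all genes. Hk2, a hexokinase, was at 146 CPM in rat and 50.4 CPM in mouse cells, and Adm, adrenomedullin, at 36.9 CPM in rat and 4.82 CPM in mouse cells. Tpi1 and Pkm, of the same pathway, were at 6.82 and 24.1 CPM in rat and 443 and 575 CPM in mouse cells, and Tpi1 was at 4.38 CPM in rat and 205 CPM in mouse mesenchyme. Of 10 glucocorticoid response genes, 8 lay within 2-fold, the same share as of all genes (80.0%). The receptor Nr3c1 was among them, at 82.6 CPM in rat and 79.7 CPM in mouse cells.

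Several genes ranked on the mouse side relative to mesenchyme because rat mesenchyme held more of them. Cd9, a tetraspanin, was at 405 CPM in rat and 617 CPM in mouse cells, and at 154 CPM in rat and 12.8 CPM in mouse mesenchyme. Hspb1, a small heat-shock protein, was at 37.3 CPM in rat and 140 CPM in mouse cells, and at 3604 CPM in rat and 785 CPM in mouse mesenchyme. Lgals3, galectin 3, by contrast, was below 10 CPM in mesenchyme of both species, and was at 22.5 CPM in rat and 156 CPM in mouse cells. The neuroendocrine peptide gene Calca was at 137 CPM in rat and 8.84 CPM in mouse cells, but a single rat cell held 99.7% of its rat UMIs.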
